A study of Mus musculus with 12 samples.

Results

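Genes that mark fat cells and genes that burn fatty acids were followed in the aorta of mice after infusion of elastase from pig pancreas (PPE), which breaks down elastin so that the vessel wall widens. The set held 35 of the 24341 genes named in the count table, chosen by name: 15 white adipocyte genes, 7 brown adipocyte genes and 13 fatty acid oxidation genes. All 12 mice were male C57BL/6J animals, 10 weeks old, with an infusion into the infrarenal aorta. The saline group (n = 4) was harvested at day 7, the PPE week 1 group (n = 4) at day 7 and the PPE week 2 group (n = 4) at day 14. No saline group was harvested at day 14, so PPE and time cannot be told apart in the comparison of PPE week 2 with saline. Each library is 1 mouse, and the p-values therefore measure the spread between mice. Levels are given in CPM (counts scaled to a library size of 1e+06), in the order of replicates 1 to 4.

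The aorta lies in a sleeve of perivascular fat whose cells store triglyceride and, where they are brown or beige, burn it. White adipocytes secrete adiponectin and leptin, make fatty acids from glucose products and hold them in droplets coated by perilipins. Brown adipocytes carry the uncoupling protein Ucp1, which lets the proton gradient of the mitochondrion run down as heat, and they feed it by beta-oxidation, the stepwise removal of acetyl units from fatty acids. Cold and sympathetic nerves turn the brown programme on through cyclic AMP. How much of the surrounding fat was removed before the RNA was extracted is not given in the sources used here. In bulk RNA, fewer cells of a type and less RNA per cell cannot be told apart.

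The 250 bases before the annotated start of 3 members are shown because the results turn on them: Adipoq as the white adipocyte reference, Ucp1 as the brown one, and Dio2 as the member whose level fell in both PPE groups. They come from RefSeq, build GRCm38.p6, and read 5′ to 3′ on the strand of the gene. Capitals mark matches, on either strand, to CCAAT (the box bound by NF-Y), AGGTCA (a site bound by many nuclear receptors), TGACGTCA (the cyclic AMP response element), TATAAA (the TATA box) and TTGCNCAA (a site of C/EBP proteins).
Adipoq, chr16:23146286-23146535, plus strand: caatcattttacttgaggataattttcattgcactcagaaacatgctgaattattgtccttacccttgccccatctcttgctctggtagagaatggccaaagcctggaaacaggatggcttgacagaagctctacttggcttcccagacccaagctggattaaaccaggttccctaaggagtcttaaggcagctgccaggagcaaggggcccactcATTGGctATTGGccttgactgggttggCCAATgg
Ucp1, chr8:83290098-83290347, plus strand: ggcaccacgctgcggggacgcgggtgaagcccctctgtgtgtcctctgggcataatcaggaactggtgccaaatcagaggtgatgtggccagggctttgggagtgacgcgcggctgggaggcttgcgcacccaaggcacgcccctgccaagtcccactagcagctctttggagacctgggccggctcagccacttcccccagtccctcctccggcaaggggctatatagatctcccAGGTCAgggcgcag
Dio2, chr12:90739039-90739288, minus strand: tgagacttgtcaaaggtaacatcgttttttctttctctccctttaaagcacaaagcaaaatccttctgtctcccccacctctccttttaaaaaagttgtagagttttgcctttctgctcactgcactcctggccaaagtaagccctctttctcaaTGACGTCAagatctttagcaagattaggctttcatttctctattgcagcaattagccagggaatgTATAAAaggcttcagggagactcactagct

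Of the 35 members, 28 had an entry in the promoter table. TGACGTCA stood in 1 of these 28, Dio2, where its first base lies at position -95, and in 1.55% of all 32851 promoters of the table. The TATAAA of Dio2 began at -30; Pparg was the other of the 2 members with this match, which 12.4% of all promoters hold. AGGTCA stood in 4 members, Acadm, Acadvl, Pparg and Ucp1, and in 14.0% of all promoters. CCAAT stood in 7 members and in 33.8% of all, with 3 matches in Adipoq at -34, -27 and -7, the first 2 of them on the opposite strand. TTGCNCAA stood in 4 members, Acads, Cidec, Lep and Plin1, and in 2.61% of all promoters. A match describes the letters and is no evidence that a factor binds there.

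The libraries held 8343313 to 12269131 counts each, of which a ribosomal RNA precursor took 36.2 to 49.9% in saline, 21 to 34.6% at PPE week 1 and 19.5 to 22.1% at PPE week 2. Smooth muscle markers were abundant, as the aorta label says: their 10 genes summed to 4959 to 6532 CPM in saline, 1664 to 2980 at PPE week 1 and then 4528 to 10081 at PPE week 2. Macrophage markers summed to 2073 to 2563, 4021 to 5175 and 1305 to 3426 CPM, with Itgam of the 10 at 0. Adventitial fibroblast markers summed to 1706 to 1952, 815 to 1171 and 1023 to 1407 CPM, none of the 10 at 0. Endothelial markers summed to 657 to 881, 703 to 811 and 734 to 1242 CPM, with Pecam1 and Tek of the 10 at 0. Skeletal muscle, which also burns fatty acids, had markers summing to 51.02 to 101 CPM in saline, 36.7 to 82.4 at PPE week 1 and then 85.7 to 122 at PPE week 2, with 4 of the 24 genes, Acta1, Tnnt1, Tnni1 and Cacna1s, at 0. The 8 cardiac markers, led by Ryr2, summed to 108 to 134, 18.5 to 79.5 and 94.2 to 182 CPM, with Myh6, Myl7 and Tnnt2 at 0. The 6 mesothelial markers stayed between 0.259 and 31.5 CPM. As set out below for the members, reads shared between isoforms seem to be missing from the deposited counts. A gene listed at 0, here or in the further lists, therefore cannot be read as not expressed.

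PPE week 2 replicates 1 and 2 stood apart for these genes. Replicate 1 held the highest level of 22 of the 27 members that could be tested, and replicate 2 the lowest of 15. The white adipocyte genes summed to 30880 CPM in PPE week 2 replicate 1 and to 1539 CPM in replicate 2, against 13599 and 12082 CPM in replicates 3 and 4. Saline libraries summed to 6421 to 13153 CPM and PPE week 1 libraries to 2525 to 4536 CPM. The brown adipocyte sum ran from 75.1 to 234 CPM in saline, from 6.88 to 46.6 at PPE week 1 and then from 7.67 to 590.3 at PPE week 2. The fatty acid oxidation sum, with 533 to 963, 435 to 563 and 369 to 1624 CPM, had the smallest ratio of highest to lowest library of the 3. For the white and brown sums all 4 PPE week 1 libraries lay below all 4 saline libraries, while the fatty acid oxidation sums overlapped; the PPE week 2 libraries ran past both ends of the saline range in all 3 sums. Scd1 and Fasn led the white sum, with 15681 and 10730 of the 30880 CPM in PPE week 2 replicate 1. A sum of 6 adipocyte-defining genes (Adipoq, Plin1, Cidec, Lep, Cfd and Ucp1) overlapped between the groups. It ran from 103 to 398 CPM in saline, 66.3 to 127 at PPE week 1 and 56.8 to 629 at PPE week 2. Adipoq led this sum, with 377 of the 398 CPM in saline replicate 1, and Ucp1 came second. Cfd is listed at 0 and Cidec held 3 counts in all, so the sum mostly describes Adipoq and Ucp1. The coefficient of variation within a group (SD over mean) had a median over the 27 members of 0.432 in saline, 0.275 at PPE week 1 and then 0.768 at PPE week 2. Over all 12756 features tested these medians were 0.347, 0.245 and 0.403. PPE week 2 had the highest coefficient of variation of the 3 groups in 21 of the 27 members and in 50.2% of all features.

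**Figure D1:**
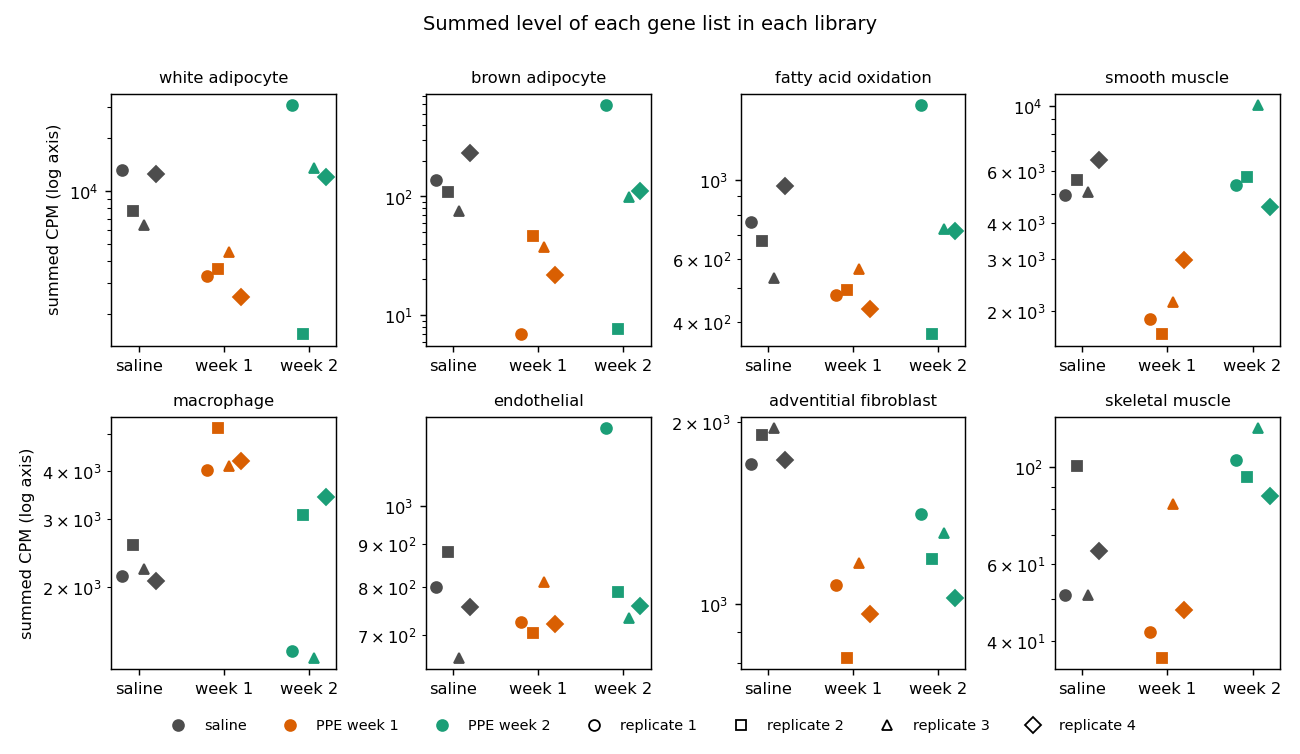
Summed CPM (log axis) of the 3 member lists and of 5 cell type marker lists in each library; colour gives the group and shape the replicate number. PPE week 2 replicate 1 (circle) is highest in the 3 member lists, at 30880 CPM for white adipocyte genes, and replicate 2 (square) is lowest in the white adipocyte and fatty acid oxidation lists, while PPE week 1 replicate 1 is lowest in the brown adipocyte list.

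Not every member could be measured. Reads shared between isoforms seem to be missing from the deposited counts: the 25 members with 1 RefSeq accession had 37 to 586047 counts in all 12 libraries together, and the 10 members with at least 2 accessions had 0 to 1373. Cfd (adipsin), Ppargc1a (the coactivator of mitochondrial genes) and Hadhb (the beta subunit of the trifunctional protein) are each listed at 0 in every library and belong to the second kind. Cidec (3 counts), Pnpla2 (63) and Lipe (86), a droplet protein and 2 lipases that break down stored fat, belong to it too. These 6, with Elovl3 (37 counts) and Fabp3 (98), fell under the filter on low counts, which 27 of the 35 members passed. Plin1, Retn, Pparg and Acsl1 passed it with several accessions each. Their values rest on the reads counted for 1 accession and may give the full level of neither the gene nor that isoform.

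Among the white adipocyte genes, Adipoq (NM_009605, chr16:23146536-23157968), which encodes the hormone adiponectin, was found in every library. Its level was 377, 125, 93.8 and 135 CPM in saline, 125, 95.5, 113 and 62.4 at PPE week 1, then 401, 56.6, 259.7 and 159 at PPE week 2. Saline replicate 1 and PPE week 2 replicate 1 were high and the groups overlapped. Plin4, a coat protein of lipid droplets, had 429, 224, 179 and 216 CPM in saline, 191, 113, 145 and 115 at PPE week 1, then 755, 125, 467 and 237 at PPE week 2. Its gene overlaps Hdgfl2, and because the library kit does not keep the strand, reads of the overlap cannot be assigned. Fabp4, the fatty acid carrier of adipocytes and also of some macrophages and endothelium, had 1388, 584, 520.1 and 822 CPM in saline, 331, 341, 428 and 216 at PPE week 1, then 1980, 124, 787 and 611 at PPE week 2. All 4 PPE week 1 libraries lay below all saline libraries for Fabp4, but not for Adipoq or Plin4. Lep, the hormone leptin, was low, with 0 to 7.27 CPM over the 12 libraries. Retn (resistin) had 1.55 to 26.5 CPM, Pparg, the master regulator of adipocytes, 0 to 2.79 CPM and Plin1 0 to 3.43 CPM.

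Of the enzymes that make fatty acids and triglyceride, Scd1 had the highest level of all members per length. Per kilobase of transcript the mean over 12 libraries was 977 CPM for Scd1, which puts the double bond into stearate, 301 for Fasn, the fatty acid synthase, and 36.9 for Acaca, which makes malonyl-CoA, against 756 for Fabp4 and 129 for Adipoq. Fasn (NM_007988, chr11:120805958-120825166) was at 3525, 2222, 1602 and 3287 CPM in saline, at 725, 892, 1370 and 738 at PPE week 1, then at 10730, 509.7, 5873 and 4773 at PPE week 2. Every PPE week 1 library was below every saline library, and PPE week 2 held both the highest and the lowest value of all 12. Scd1 had 6634, 4095, 3667 and 7504 CPM in saline, 1773, 1999, 2248 and 1250 at PPE week 1, then 15681, 611, 5453 and 5729 at PPE week 2. Acaca had 622, 332, 269 and 499 CPM, then 101, 118, 172 and 107, then 827, 73.0, 482 and 396; it overlaps 3 other annotated genes. Dgat2, which adds the last fatty acid to triglyceride, had 156, 95.5, 81.7 and 129.6 CPM in saline, 60.5, 38.7, 50.95 and 29.1 at PPE week 1, then 472, 31.9, 244 and 153 at PPE week 2. Scd1, Acaca and Dgat2 shared the order seen for Fasn: PPE week 1 wholly below saline, and PPE week 2 replicates 1 and 2 at opposite ends of their group. Highest over lowest library was 25.7 for Scd1 and 6.68 for Plin4, the extremes among the 8 white adipocyte genes found in every library.

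**Figure D2:**
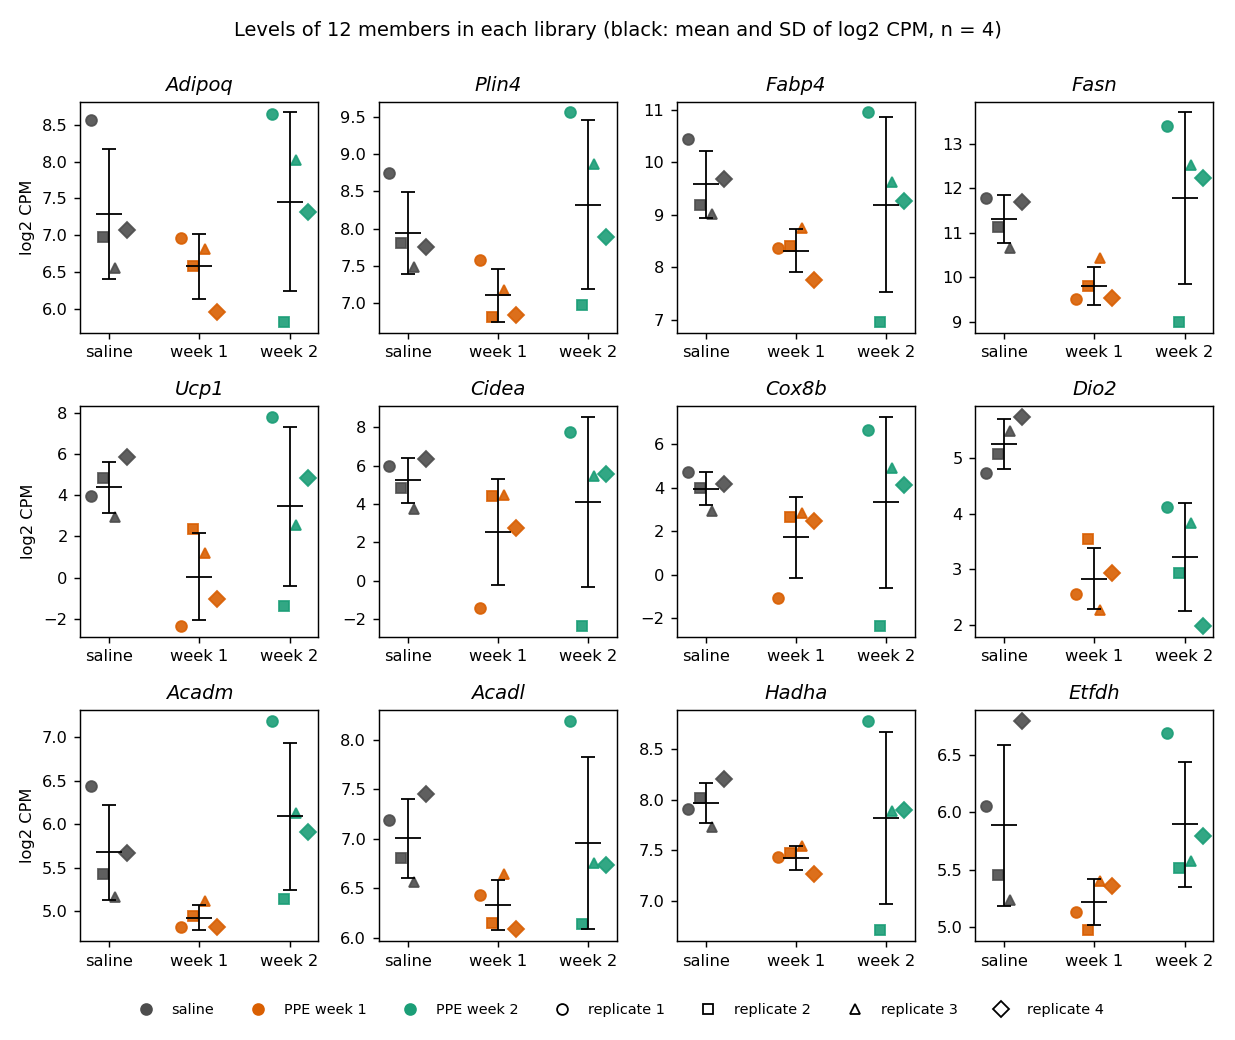
Level of 12 members in each library as log2 CPM with a prior count of 2; colour gives the group, shape the replicate number, and the black mark the mean with its SD (n = 4). Spread was wide at PPE week 2, where Ucp1 ran from 0.192 to 226 CPM, and Dio2 alone of the 12 shown has both PPE groups wholly below saline.

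The brown adipocyte genes varied most between libraries. Ucp1 (NM_009463, chr8:83290348-83298456) had 15.1, 28.5, 7.58 and 57.7 CPM in saline, 0, 4.87, 2.10 and 0.299 at PPE week 1, then 226, 0.192, 5.60 and 28.4 at PPE week 2. The PPE week 1 libraries were all below the saline libraries. PPE week 1 replicate 1 held 0 counts of Ucp1 and PPE week 2 replicate 2 held 2, against 2424 in PPE week 2 replicate 1; a count of 0 in PPE week 1 replicate 1 allows up to 0.275 CPM, counting error alone. Cidea, a droplet protein of brown fat, had 63.3, 28.2, 13.2 and 82.1 CPM in saline, 0.184, 20.9, 22.2 and 6.49 at PPE week 1, then 215, 0, 44.3 and 47.9 at PPE week 2. Cox8b, a cytochrome oxidase subunit of muscle and brown fat, had 26.1, 15.8, 7.32 and 17.6 CPM, then 0.275, 6.08, 6.88 and 5.29, then 99.6, 0, 29.9 and 17.0. Cox7a1, another such subunit, ran from 2.61 to 22.5 CPM in saline, from 0.734 to 3.21 at PPE week 1 and then from 0 to 29.3 at PPE week 2. PPE week 1 replicate 1 and PPE week 2 replicate 2 were the 2 lowest libraries for each of Ucp1, Cidea, Cox8b and Cox7a1. Adipoq stood at 125 and 56.6 CPM in those libraries, and 56.6 CPM was its lowest level in any library. The white adipocyte sum was 3319 CPM in PPE week 1 replicate 1 and 1539 CPM in PPE week 2 replicate 2, its lowest in any library. Elovl3, an elongase of brown fat, had 34 of its 37 counts in PPE week 2 replicate 1.

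Dio2 (NM_010050, chr12:90724552-90739038), the deiodinase that makes active thyroid hormone inside the cell, had another pattern than Ucp1, Cidea and Cox8b; the difference between them was not tested. It had 26.2, 33.2, 44.4 and 53.3 CPM in saline, 5.69, 11.5, 4.64 and 7.48 at PPE week 1, then 17.3, 7.48, 14.0 and 3.74 at PPE week 2. All 8 PPE libraries were below all 4 saline libraries, and PPE week 2 replicate 1, highest of all for Ucp1, Cidea and Cox8b, lay below the lowest saline library for Dio2. Its gene overlaps Gm26512, whose reads cannot be told apart from its own. Across the 12 libraries, as a description, the log2 level of Dio2 had a Pearson r of 0.25 with Adipoq and 0.54 with Ucp1. Spearman's rho was 0.22 and 0.59. Plin4 had the highest r with Adipoq of all members, 0.94. With Ucp1 the white adipocyte gene Scd1 had the highest r of all members, 0.90, and Cidea the highest among the brown adipocyte genes, 0.88. Adipoq and Ucp1 had an r of 0.66, or 0.58 from deviations within groups. The points of all these correlations share their library, its depth and its scaling.

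**Figure D3:**
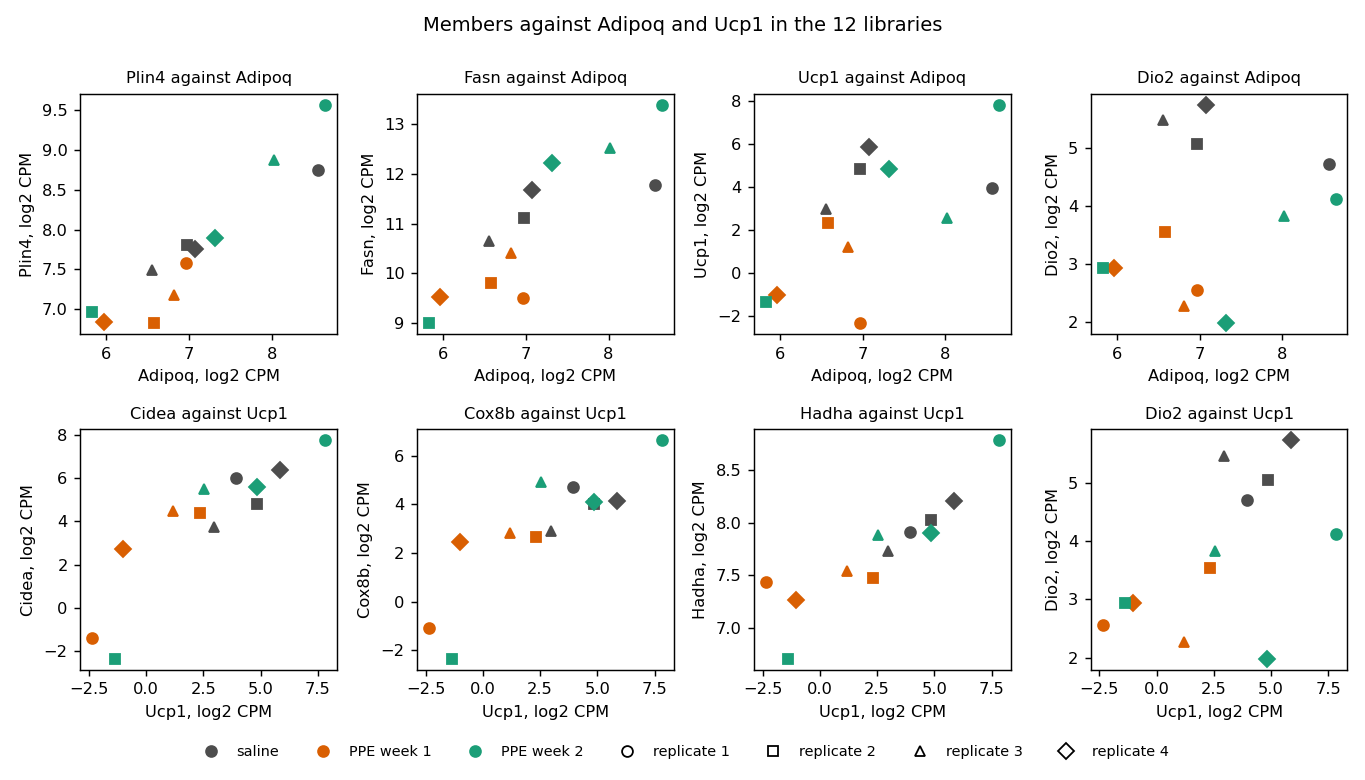
Log2 CPM of 7 members against Adipoq (top) or Ucp1 (bottom), 1 point per library; colour gives the group and shape the replicate number. Plin4 follows Adipoq (r = 0.94) and Cidea follows Ucp1 (r = 0.88), while Dio2 splits into saline above and PPE below at like levels of Adipoq (r = 0.25).

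The fatty acid oxidation genes moved over a smaller range. Highest over lowest library lay between 3.56 (Etfdh, which passes electrons from beta-oxidation to the respiratory chain) and 10.3 (Cpt2, the inner carnitine palmitoyltransferase) among the 9 of these genes found in every library. The acyl-CoA dehydrogenases take the first step of a beta-oxidation cycle, each on its own chain lengths. Acadm (NM_007382, chr3:153922353-153944643), the medium-chain enzyme, had 86.4, 42.9, 35.7 and 50.9 CPM in saline, 28.0, 30.6, 34.6 and 27.9 at PPE week 1, then 145, 35.1, 69.5 and 60.1 at PPE week 2. PPE week 1 lay wholly below both other groups, though its highest library, at 34.6 CPM, was close to the lowest of each, at 35.7 and 35.1 CPM. Acadl, the long-chain enzyme, had 146, 112, 94.3 and 175 CPM in saline, 86.4, 70.8, 99.6 and 68.1 at PPE week 1, then 293, 70.3, 108 and 107 at PPE week 2, with all groups overlapping. Acadvl, the very-long-chain enzyme, ran from 72.7 to 171 CPM in saline, from 58.2 to 82.1 at PPE week 1 and then from 46.9 to 274 at PPE week 2. Acads, the short-chain enzyme, ran from 7.32 to 65.0 CPM over the 12 libraries.

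Hadha, the alpha subunit of the trifunctional protein that carries out the later steps on long chains, had 240.5, 259.7, 212 and 295 CPM in saline, 173, 177, 186 and 153 at PPE week 1, then 440.4, 104, 236 and 238 at PPE week 2. All PPE week 1 libraries were below all saline libraries. Acaa2, the thiolase that closes the cycle, had 28.4 to 63.4 CPM in saline, 26.3 to 42.3 at PPE week 1 and then 21.01 to 109.9 at PPE week 2. Slc25a20, the carnitine-acylcarnitine carrier, had 24.8 to 46.2, 23.9 to 35.3 and 15.3 to 67.3 CPM, and Cpt2 18.7 to 34.0, 15.1 to 30.7 and 11.03 to 114 CPM. Etfdh ran from 37.5 to 111 CPM in saline, from 31.2 to 42.1 at PPE week 1 and then from 45.6 to 103 at PPE week 2, wholly above PPE week 1. Its gene overlaps Ppid, and Acadl, Acadvl, Cpt1b, Acsl1 and the brown adipocyte gene Cidea also overlap other annotated genes. Reads of these overlaps cannot be assigned. Cpt1b, the muscle and brown fat form of the outer carnitine palmitoyltransferase, reached at most 3.64 CPM and was at 0 in 2 saline libraries. Acsl1, which activates fatty acids, had 0 to 4.29 CPM.

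**Figure D4:**
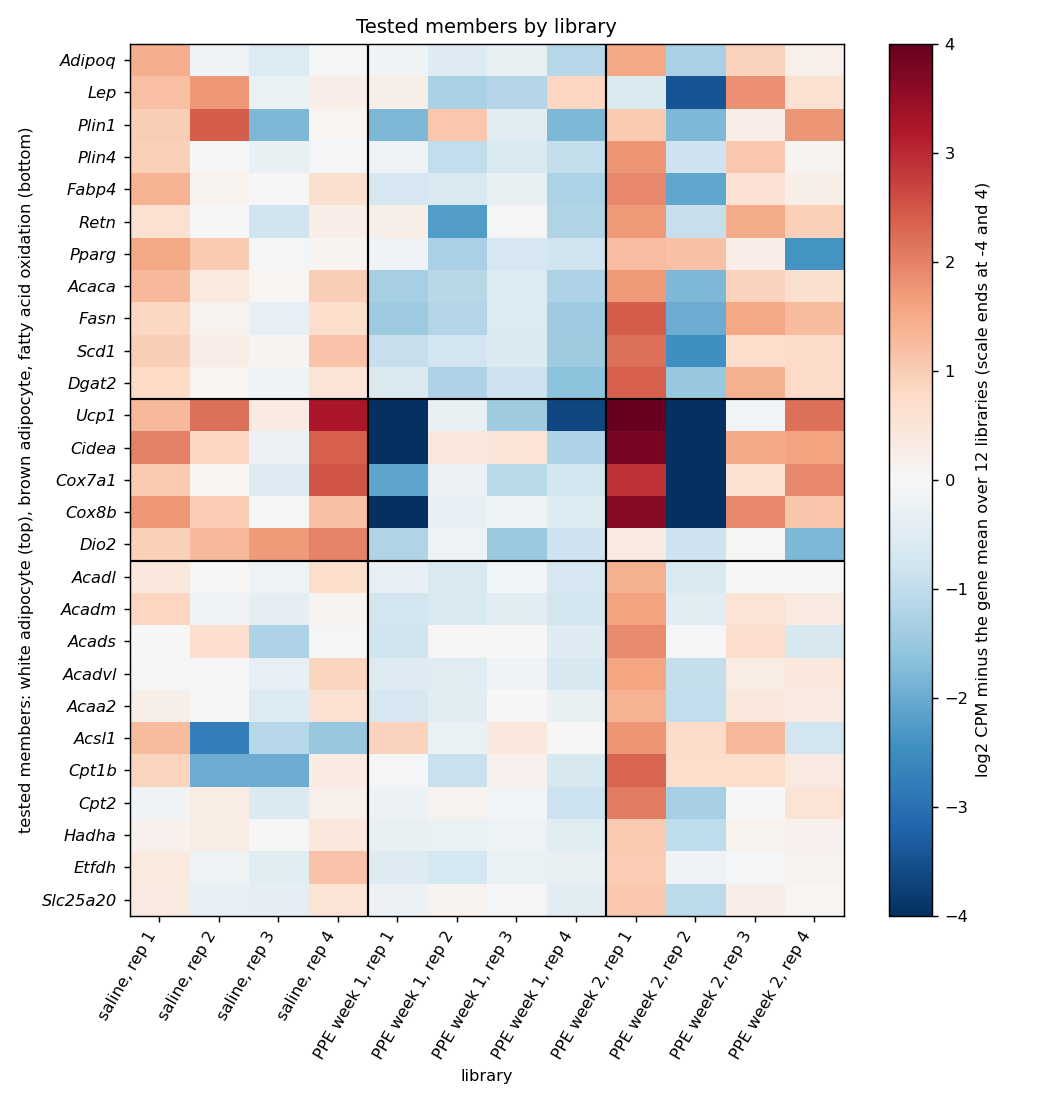
Log2 CPM of the 27 tested members minus each gene's mean over 12 libraries, libraries in columns by group; red is above and blue below the mean, and the scale ends at -4 and 4. The column of PPE week 2 replicate 1 is the reddest in all 3 lists, and the brown adipocyte rows other than Dio2 are darkest blue in PPE week 1 replicate 1 and PPE week 2 replicate 2.

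At PPE week 1 against saline, Dio2 fell and no other member passed the test. It averaged 7.33 ± 3.02 CPM at PPE week 1 and 39.3 ± 11.99 CPM in saline (SD, n = 4), 5.37-fold less and a log2 fold change of -2.43 ± 0.43 (SE, edgeR quasi-likelihood adjusted p = 0.00361). Thus 1 of the 27 tested members was called lower and 0 higher, at an adjusted p under 0.05, while 3.91% of all features tested were called lower and 3.98% higher; 1 of 27 is close to that share. At an unadjusted p under 0.05 edgeR had 5 members lower and 0 higher, against 10.1% and 11.6% of all features. DESeq2 called 2 members lower and 0 higher, against 5.92% and 6.52%. The libraries of 11 members did not overlap, all of them lower at PPE week 1: Fabp4, Pparg, Acaca, Fasn, Scd1, Dgat2, Ucp1, Cox8b, Dio2, Acadm and Hadha. Of all features, 9.01% were lower without overlap. The median log2 fold change was -0.89 over the 27 tested members and 0.00 over all features, with -1.37 for white adipocyte, -2.25 for brown adipocyte and -0.45 for fatty acid oxidation genes. Fasn had -1.51 ± 0.69 (edgeR adjusted p = 0.240), Scd1 -1.59 ± 0.72 (0.237), Ucp1 -3.92 ± 1.74 (0.227) and Adipoq -0.89 ± 0.59 (0.456). Acsl1 alone of the 27 had a value above 0, 0.65 ± 1.12, though Acads, Cpt2 and Slc25a20 also did with scaling by library size only, at 0.066, 0.0803 and 0.0079.

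How many members passed changed with the libraries in the fit; the cause was not tested. A fit of the 8 saline and PPE week 1 libraries alone, in which 24 members passed the filter on low counts, called 11 lower, against 7.83% of all features in that fit: Fabp4, Acaca, Fasn, Scd1, Dgat2, Ucp1, Cox7a1, Dio2, Acadl, Acadm and Hadha. In that fit Fasn had a log2 fold change of -1.52 with an edgeR adjusted p of 0.0115 and Hadha one of -0.56 with 0.00324. Without PPE week 2 replicate 2 the fit called 5 of 29 members lower, Acaca, Fasn, Scd1, Dgat2 and Dio2, against 4.3% of all features, and without PPE week 2 replicate 1 it called 2 of 27, against 4.56%. With the ribosomal RNA precursor's share, which itself differed between the groups, as a covariate 0 members were called, and Dio2 then had an edgeR adjusted p of 0.0971. The authors' deposited table for PPE week 1 listed 28 of the 35 members, 15 of them lower at their adjusted p under 0.05 and 0 higher, against 8.18% and 9.23% of all 13810 entries. The authors' deposited table gave log2 fold changes of -2.26 for Dio2, -1.41 for Fasn, -1.51 for Ucp1 and -0.56 for Hadha. Beside these members, the edgeR fit of all 12 libraries called 6 of 10 tested smooth muscle markers and 5 of 10 adventitial fibroblast markers lower. Of the 10 fibroblast markers 2 were above 0. The same fit called 3 of 9 tested macrophage markers higher, against 3.91% of all features lower and 3.98% higher. The part of these cells in the change of Dio2 was not tested.

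At PPE week 2 against saline, Dio2 was again the member that fell, and PPE week 1 and PPE week 2 were set against the same saline libraries. It averaged 10.6 ± 6.13 CPM at PPE week 2 (SD, n = 4), 3.70-fold less than saline and a log2 fold change of -1.89 ± 0.42 (edgeR adjusted p = 0.0250). No tested member was called higher, and Dio2 was the 1 called lower, against 1.3% of all features called higher and 1.35% lower. Before adjustment edgeR likewise gave 0 members higher and 1 lower at the threshold of 0.05, against 8.84% and 7.72% of all features, and DESeq2 called 0 higher and 1 lower, against 3.21% and 2.63%. It was also the only member whose libraries did not overlap, as 4.44% of all features were lower without overlap. The call was lost without saline replicate 3 (edgeR adjusted p = 0.0738), saline replicate 4 (0.0774) or PPE week 2 replicate 2 (0.0639), in a fit of these 8 libraries alone (0.0692) and with the ribosomal RNA precursor's share as a covariate (0.875). The log2 fold change stayed between -2.23 and -1.61 when single libraries were left out. The authors' deposited table for PPE week 2 listed 23 members and had Dio2 as the 1 with an adjusted p under 0.05, at a log2 fold change of -1.41, where 1.63% of all 9917 entries were lower and 2.2% higher. Of 10 adventitial fibroblast markers 3 were called lower here, with 6 of the 10 below 0 and 4 above, while 0 of 10 smooth muscle markers were called. The part of either in the change of Dio2 was not tested.

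At PPE week 2 no other member was called, and leaving out single libraries turned the sign of several. Of the 27 tested, 22 were above 0, as were 53.7% of all features, and 5 below, 4 of which (Lep, Plin1, Pparg and Etfdh) were above 0 with scaling by library size only. They had a median log2 fold change of 0.41 against 0.05 over all features. Fasn had 1.04 ± 0.68 (edgeR adjusted p = 0.508), Ucp1 1.26 ± 1.48 (0.752), Adipoq 0.26 ± 0.59 (0.886) and Hadha 0.02 ± 0.31 (0.989). Without PPE week 2 replicate 1, Ucp1 was at -1.25, Adipoq at -0.21, Scd1 at -0.48 and Hadha at -0.39, and the median of the tested members was -0.21. Without PPE week 2 replicate 2 the median was 0.75.

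**Figure D5:**
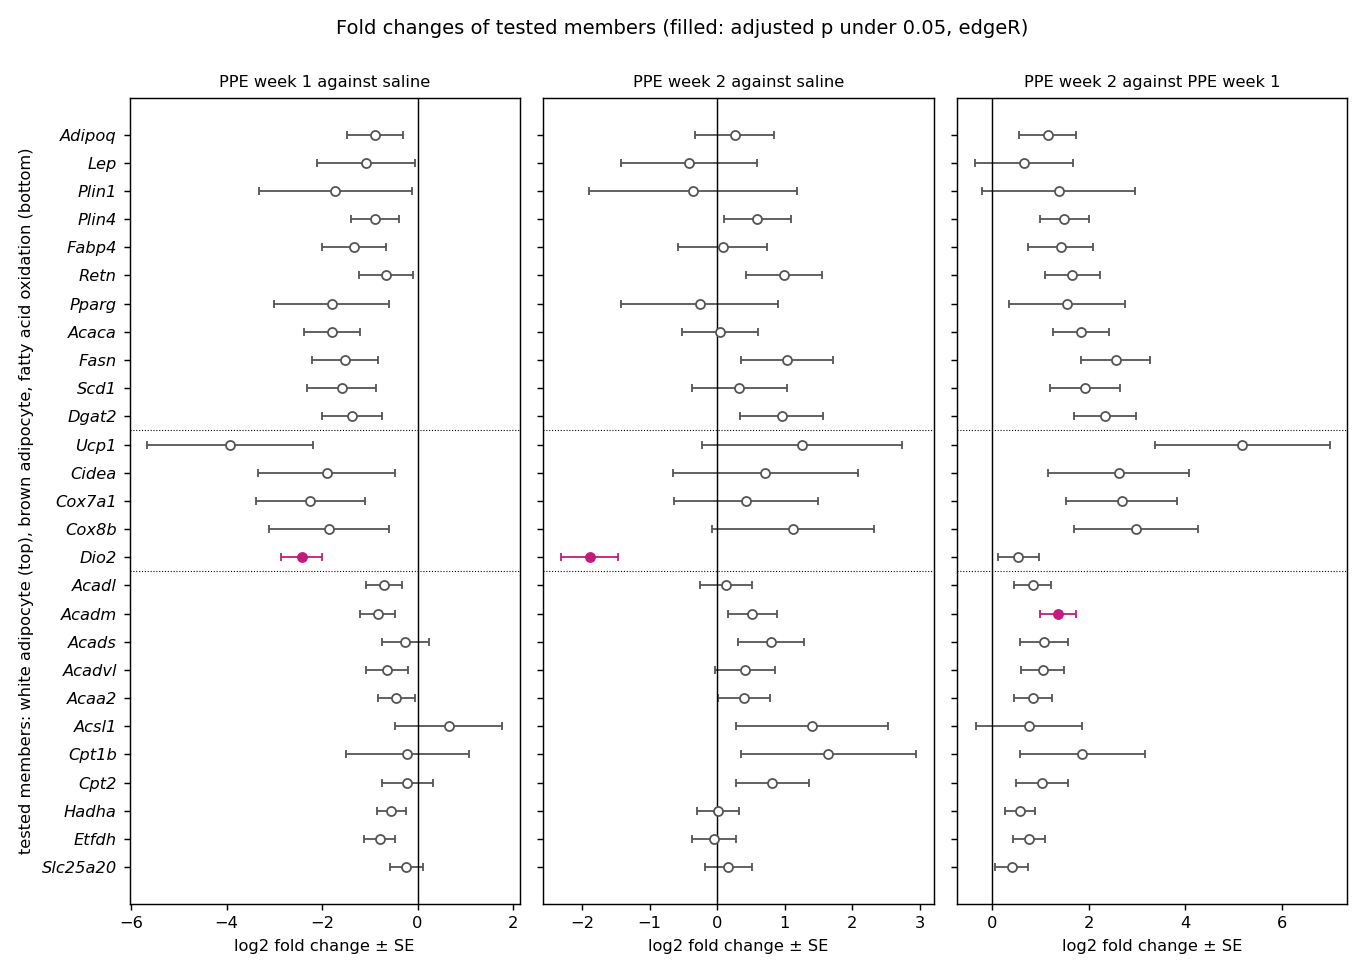
Log2 fold change ± SE (edgeR) of the 27 tested members in the 3 comparisons, ordered by list; filled points have an adjusted p under 0.05. Dio2 is filled in both comparisons with saline, at -2.43 and -1.89, and Acadm between the PPE weeks, at 1.36.

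Between the PPE weeks, Acadm rose and no other member passed the test. It averaged 77.5 ± 47.5 CPM at PPE week 2 and 30.3 ± 3.12 CPM at PPE week 1 (SD, n = 4), a log2 fold change of 1.36 ± 0.37 (edgeR adjusted p = 0.0443). So 1 of 27 members was called higher and 0 lower, against 3.77% and 2.82% of all features, and 1 of 27 is close to the first share. DESeq2 called 8 members and 6.37% of all features higher. Acadm, Cpt1b and Etfdh were higher without overlap, as were 7.24% of all features. All 27 tested members had a value above 0, as did 51.3% of all features, and 14 were higher at an unadjusted p under 0.05 (edgeR), as were 10.6% of all features. The median was 1.37 over the members and 0.02 over all features, with 1.55 for white adipocyte, 2.68 for brown adipocyte and 0.84 for fatty acid oxidation genes. Fasn had 2.55 ± 0.71 (edgeR adjusted p = 0.0666), Dgat2 2.33 ± 0.64 (0.0603) and Ucp1 5.18 ± 1.81 (0.134). Dio2 had 0.54 ± 0.42 (0.527).

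The PPE week 2 replicates that stood apart changed these calls. Without replicate 2, 14 of the 29 members then tested and 4.83% of all features were called higher: Plin4, Fabp4, Retn, Acaca, Fasn, Scd1, Dgat2, Ucp1, Cox7a1, Cox8b, Acadm, Acadvl, Acaa2 and Hadha. Without replicate 1, 0 of 27 members were called higher, against 369 of 13317 features. The median log2 fold change of the members was then 0.91, and Acadm had 0.85 (edgeR adjusted p = 0.0955). Its call was also lost without saline replicate 2 or 4, any 1 PPE week 1 library or PPE week 2 replicate 3, with edgeR adjusted p from 0.0621 to 0.133, in a fit of the 8 PPE libraries alone (0.0654), with no filter on low counts (0.116) and with the ribosomal RNA precursor's share as a covariate (0.373). With limma-voom its adjusted p was 0.0641. The skeletal muscle sum was higher in all 4 PPE week 2 libraries than in any PPE week 1 library, with 1 of 9 tested markers, Pygm, called higher. Pygm, a glycogen phosphorylase, and Neb, which encodes nebulin, had the highest levels of that list, while 5 of the 9 markers had a value below 0 and the median log2 fold change over the 9 was -0.18. In the fit of all 12 libraries, which called 3.77% of all features higher and 2.82% lower, smooth muscle markers had 6 of 10 called higher. So were 1 of 4 tested cardiac markers and 1 of 8 tested endothelial markers. Adventitial fibroblast markers had 4 of 10 called higher, though 5 of the 10 were below 0. Of 9 tested macrophage markers 2 were called lower. The part of these cells in the value of Acadm was not tested.

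Ratios within a library set each gene against Adipoq. Fasn had 9.35 to 24.4 counts per Adipoq count in saline, 5.81 to 12.2 at PPE week 1 and then 9.01 to 30.0 at PPE week 2. PPE week 2 replicate 2, lowest of all libraries in both genes, had a ratio of 9.01, within the PPE week 1 range. Dgat2 had 0.414 to 0.963, 0.405 to 0.485 and 0.564 to 1.18 counts per Adipoq count, so that PPE week 2 lay wholly above PPE week 1. Plin4 had nearly the same ratio in each group, 1.14 to 1.91, 1.18 to 1.84 and 1.49 to 2.22. Ucp1 per Adipoq count ran from 0.0402 to 0.429 in saline, from 0 to 0.0509 at PPE week 1 and then from 0.00339 to 0.564 at PPE week 2. No test was made of these ratios.

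Further genes of the same pathways were examined as lists. Of 31 other adipocyte genes 23 were tested, and Nrip1, a corepressor of oxidative genes, was the 1 called at PPE week 1, with a log2 fold change of -0.52 ± 0.14 (edgeR adjusted p = 0.0271). Of all features 3.91% were called lower there, a share to which 1 of 23 is close. At an unadjusted p under 0.05, 6 of the 23 were lower and 0 higher, against 10.1% and 11.6% of all features. Nrip1 had 159, 138, 123 and 121 CPM in saline, 84.2, 98.4, 104 and 89.9 at PPE week 1, then 122, 128, 132 and 104 at PPE week 2. The 3 highest of this list were Car3, an abundant carbonic anhydrase of fat, Lpl, the lipase that takes up fatty acids from blood, and Gpd1, which makes the glycerol backbone, and none was called in any comparison. At PPE week 2 none of the 23 was called against saline or against PPE week 1 by edgeR. At an unadjusted p under 0.05, 1 and 13 were higher, against 8.84% and 10.6% of all features. Gpd1 averaged 207 ± 59.5 CPM in saline, 76.1 ± 24.1 at PPE week 1 and then 455 ± 453 at PPE week 2 (SD, n = 4). Cebpa and Apoc1 of the list are listed at 0.

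Of 16 other brown adipocyte genes 8 were tested, with 0 called by edgeR against saline. At an unadjusted p under 0.05, 3 were lower at PPE week 1 and 2 higher at PPE week 2, against 10.1% and 8.84% of all features. Between the PPE weeks 2 were called higher, against 3.77% of all features, and 6 were higher at the unadjusted p, against 10.6%. Kcnk3, a potassium channel of brown fat, had 28.0, 28.0, 9.02 and 38.7 CPM in saline, 6.88, 10.3, 9.35 and 7.88 at PPE week 1, then 62.9, 9.40, 34.8 and 35.9 at PPE week 2. Between the PPE weeks Kcnk3 differed by 2.05 ± 0.49 (edgeR adjusted p = 0.0247), with PPE week 2 replicate 2 inside the PPE week 1 range. S100b differed by 1.56 ± 0.43 (0.0405). Every PPE week 2 library lay above every PPE week 1 library for S100b. This held for PPE week 2 replicate 2 too, the lowest library for Cidea, Cox7a1 and Cox8b. The cell types behind the values of Kcnk3 and S100b were not tested. Elovl5 and Letmd1, with Kcnk3 the highest of the list, were not called, and Prdm16 and Ebf2 are listed at 0. Of 32 other fatty acid oxidation genes 29 were tested, with 0 called by edgeR against saline. Between the PPE weeks 3 were called higher at PPE week 2, against 3.77% of all features: Ech1 by 1.05 ± 0.27 (edgeR adjusted p = 0.0302), Acad11 by 1.17 ± 0.32 (0.0354) and Acadsb by 0.70 ± 0.20 (0.0431). Ech1, which shifts double bonds of unsaturated fatty acids, had 50.7, 33.0, 52.1 and 50.4 CPM at PPE week 1 but 164, 61.7, 87.7 and 72.0 at PPE week 2, without overlap. Cpt1a, the widely expressed outer carnitine palmitoyltransferase and the highest of the list with Hsd17b4 and Acsl5, averaged 148 ± 32.2 CPM in saline, 182 ± 22.6 at PPE week 1 and then 143 ± 15.2 at PPE week 2 and was not called. At an unadjusted p under 0.05, 4 of the 29 were lower and 1 higher than saline at PPE week 1, against 10.1% and 11.6% of all features. At PPE week 2, 4 were higher than saline, against 8.84%. Between the PPE weeks 12 were higher, against 10.6% of all features, and 1 was lower, against 1259 of the 12756 features. Etfb and Acsl3 are listed at 0.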

How the data were processed

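RNA of 12 mouse aortas was made into libraries with the TrueSeq v2 kit, per the labels' protocols, which does not keep the strand. The authors deposited raw counts per RefSeq accession, and 2 tables of their own comparisons with log2 fold changes and p-values. Build mm10, bcl2fastq and DESeq2 are named in the submitters' processing notes. The aligner and the counting tool were not given in the sources used here. Of 34755 accessions, RefSeq's table for GRCm38.p6 named 34424 and GENCODE M21 192.

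From the counts, 12756 accessions passed edgeR's filterByExpr. After TMM scaling, edgeR 4.0.16 (R 4.3.3) fitted a quasi-likelihood model to all 12 libraries with 1 mean per group. Tests were two-sided, p-values were adjusted by Benjamini-Hochberg across these accessions, and the threshold was 0.05. The fit was tested on counts simulated from its own estimate of the spread. These held no group differences in the ribosomal RNA precursor's share and no libraries that stood apart, so that run cannot speak to either. Log2 CPM used a prior count of 2, and SE is the log2 fold change over the square root of F. A member is represented by its accession with the highest mean CPM. All members are named, with the called genes and the 3 highest of each further list and up to 2 genes of each marker list. The members and lists were chosen with earlier results of these data known. The alternatives were scaling by library size, DESeq2 1.42.0, limma-voom (limma 3.58.1), no filter, the replicate number as a block, fits of 2 groups, each library left out, halved counts, counts summed per gene, and the ribosomal RNA precursor left out or its share as a covariate.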

Additional observations from a re-analysis of the deposited data

Results flagged for a closer look

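Cox8b at PPE week 1 stood out for 1 library. Its log2 CPM was -1.09 in PPE week 1 replicate 1 and 2.46 to 2.82 in the other 3 libraries, so that the gap to the nearest library was 0.906 of the whole range. The count behind it was 3. Of 81 groups of 4 libraries examined, 1 for each tested member and group, this was the 1 that stood out, where chance alone gives about 1 in 20.

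Acadm differed between the PPE weeks by 1.36 on the log2 scale. Against saline its log2 fold change was -0.84 at PPE week 1 (edgeR adjusted p = 0.201) and 0.52 at PPE week 2 (0.529). These effects had opposite signs and neither was called. Both effects share the saline libraries, so this difference is the direct comparison of PPE week 2 with PPE week 1 (edgeR adjusted p = 0.0443).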

How the results depend on the processing

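Depth limits the low members: 1 count is 0.0720 to 0.149 CPM, and Cpt1b held 113 counts in all, Plin1 104, Pparg 136 and Acsl1 214. Of 795 values of single members under the settings other than leave-one-out, 727 kept their direction and their side of the threshold, 42 changed sign, 18 came to pass the threshold and 8 no longer passed it. The cause was not tested where none is named.

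Counts of calls moved as follows. At PPE week 1 against saline, 508 features were higher and 499 lower. These were 1034 and 195 with scaling by library size only, 832 and 755 with DESeq2, 1113 and 913 with 2 groups and 23 and 59 with the ribosomal RNA precursor's share as a covariate. Members called lower went from 1 to 2 with DESeq2, 11 with 2 groups and 0 with the covariate. At PPE week 2 against saline, 166 features were higher and 172 lower. These were 1611 and 27 with scaling by library size, 410 and 335 with DESeq2, 33 and 41 with 2 groups and 0 and 0 with the covariate, and limma-voom called 108 higher. The 1 member called lower was lost with 2 groups and the covariate, which left 0. Between the PPE weeks, 481 features were higher and 360 lower. These were 812 and 651 with DESeq2 and 54 and 15 with the covariate. Lower counts were 75 with scaling by library size, 694 with limma-voom and 184 with 2 groups. Members called higher went from 1 to 8 with DESeq2 and to 0 with limma-voom, no filter, 2 groups or the covariate. Scaling by library size moved the median of all features by 0.28, 0.54 and 0.23 in the 3 comparisons.

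The replicate numbers share only a number: same-numbered libraries had correlations of their deviations from the group means between -0.0881 and 0.0353, none of 12 pairs over 0.1, and 0 of 12 libraries correlated best with their own number. With the replicate block, PPE week 2 against saline had 91 features higher and 113 lower and 0 members lower (Dio2 adjusted p = 0.0749, edgeR). The block turned Cpt1b 0.41 at PPE week 1, and Plin1 0.62, Fabp4 -0.19, Acaca -0.16, Acadl -0.025 and Hadha -0.087 at PPE week 2.

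Signs turned elsewhere, in log2 fold change. With scaling by library size these were Acads 0.066, Cpt2 0.0803 and Slc25a20 0.0079 at PPE week 1 and Lep 0.065, Plin1 0.24, Pparg 0.22 and Etfdh 0.39 at PPE week 2. With limma-voom they were Cpt1b 0.63 at PPE week 1, Fabp4 -0.42, Acaca -0.33, Scd1 -0.33, Ucp1 -0.95, Cidea -1.51, Cox7a1 -0.85, Cox8b -1.03, Acadl -0.068 and Hadha -0.14 at PPE week 2, and Lep -0.30 between the PPE weeks. Without a filter Hadha -0.00099 turned at PPE week 2. With the covariate they were Acsl1 -0.18 at PPE week 1, Adipoq -0.50, Lep 1.48, Plin1 1.56, Fabp4 -0.72, Acaca -0.83, Scd1 -0.31, Cidea -1.18, Cox7a1 -0.84, Acadl -0.32, Acadm -0.011, Acadvl -0.10, Acaa2 -0.16, Acsl1 -0.80, Cpt1b -1.20 and Slc25a20 -0.38 at PPE week 2, and Acsl1 -0.62 between the PPE weeks.

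Leaving out single libraries gave, at PPE week 1 against saline, 156 to 789 features higher, 222 to 607 lower and 1 to 5 members lower. At PPE week 2 against saline it gave 67 to 218, 72 to 198 and 0 to 1, and between the PPE weeks 207 to 642 higher, 112 to 607 lower and 0 to 14 members higher. Signs turned at PPE week 1 for Acads -0.51 to 0.073 and Cpt1b -0.60 to 0.72, between the PPE weeks for Lep -0.36 to 1.21 and Slc25a20 -0.014 to 0.66, and at PPE week 2 for Acaa2 -0.084 to 0.67, Acaca -0.44 to 0.39, Acadl -0.48 to 0.35, Acadvl -0.16 to 0.75, Adipoq -0.21 to 0.89, Cidea -0.60 to 1.13, Cox7a1 -0.42 to 1.34, Cox8b -0.10 to 1.53, Cpt2 -0.048 to 1.15, Etfdh -0.39 to 0.35, Fabp4 -0.71 to 0.44, Hadha -0.39 to 0.27, Plin1 -1.04 to 0.80, Pparg -0.61 to 0.16, Scd1 -0.48 to 0.70, Slc25a20 -0.25 to 0.42 and Ucp1 -1.25 to 1.93.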

Other observations

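The genes outside the set whose log2 CPM followed Adipoq most closely over the 12 libraries were Car3 (Pearson r = 0.98), Slc36a2 (0.97), Abcd2 (0.97), Adipor2 (0.95) and Trarg1 (0.95). Car3 ran from 296 to 2833 CPM, and Adipor2, a receptor for adiponectin, from 73.1 to 310.3 CPM. Those closest to Ucp1 were Cycs (0.94), which encodes cytochrome c, Pm20d1 (0.93), Thrsp (0.92), Eif4e3 (0.92) and Aldh2 (0.91). Thrsp, a gene of lipid synthesis, ran from 13.8 to 574 CPM, and Cycs only from 23.7 to 56.5 CPM. The 5 closest to Cpt1b, Cyp2j9 (0.96), Cldn5 (0.95), Fosb (0.93), Pon1 (0.91) and Ppargc1b (0.89), rest on a gene with 113 counts in all. Each is the highest r among all features tested, given as a description.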
